A study of Mus musculus with 6 samples.

Results

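The Pramel and Oog (oogenesin) genes are mouse relatives of PRAME, an antigen first found in melanoma, and lie in tandem clusters on several chromosomes. The members were the Ensembl genes of the deposited expression table whose name is Pramel, Pramef or Oog followed by a number. They came to 52 of the 60193 listed genes, of which 48 had Pramel names, 4 had Oog names (Oog1 to Oog4) and 0 had Pramef names. The expression table covered metaphase II (MII) oocytes from ICR mice aged 42 to 45 weeks, in 3 samples matured in vitro (IVM) and 3 matured in vivo (IVO), each a pool of 20 oocytes from 3 mice. IVM oocytes came from mice given PMSG, were stripped of cumulus cells at the germinal vesicle stage and matured for 12 h in M16 medium. IVO oocytes came from mice given PMSG and then hCG, matured inside the follicle and were taken from the oviduct 14 h after hCG. The groups therefore also differed in hCG, in the presence of cumulus cells during maturation and in the time of collection, and these cannot be told apart here. No younger mice were among these samples, so every value below is from aged oocytes.

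PRAME-family proteins are built of leucine-rich repeats, and the family has expanded by repeated duplication in rodents. Most of its genes are known from the germline, the early embryo and tumours. Human PRAME serves as a substrate receptor of the cullin-2 ubiquitin ligase, which marks proteins for degradation, and mouse Pramel7 is known to lead the DNA methylation cofactor Uhrf1 to that ligase in pluripotent cells. Oogenesins were first described as proteins of the oocyte and the cleaving embryo. Fully grown oocytes do not transcribe, so maturation proceeds on stored mRNA, much of which is degraded or has its poly(A) tail lengthened before MII. A sequence in the 3′ end of stored mRNAs, the cytoplasmic polyadenylation element, takes part in that lengthening.

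The oogenesin-like copies are shown first by sequence, because they are so alike that their fragments can be confused. Coordinates are GRCm39, and the sequences were read from the GENCODE transcripts and the GRCm39 genome. Oog1 (chromosome 12, 87649458 to 87655620, plus strand) and Pramel51 (chromosome 12, 88142359 to 88148878, minus strand) shared 99.1% of aligned bases over their canonical transcripts. Gm2042, an oogenesin-like gene between them on chromosome 12 (87920850 to 87927453) that the name rule left out, shared 99.8% with Oog1. Pramel25 and Pramel29, on chromosome 4, shared 96.0% and 95.7% with Oog1, whereas Oog3 shared 82.5%. The 30 bases that start 48 bases before the last AATAAA, the signal for cleavage and polyadenylation, are given for the 5 close copies 5′ to 3′, all from the 3′ untranslated region, with the letters TTTTAT of the cytoplasmic polyadenylation element in capitals.
Oog1, chr12:87655548-87655577, plus strand: aatagaagcaccaTTTTATgagactggccc
Pramel51, chr12:88142403-88142432, minus strand: aatagaagcaccaTTTTATgagactggccc
Gm2042, chr12:87927379-87927408, plus strand: aatagaagcaccaTTTTATgagaatggccc
Pramel25, chr4:143522080-143522109, plus strand: aatagaggcaccaTTTTATgaaactggccc
Pramel29, chr4:143933382-143933411, minus strand: aatagaggcaccatttgatgagactggccc

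Counted from 1 at the 5′ end of the Oog1 window, Pramel51 was identical, Gm2042 differed by C24A, Pramel25 by A7G and G22A, and Pramel29 by A7G and T17G. The T17G change of Pramel29 lies inside the motif, so that TTTTAT was absent from this window and from the last 100 bases of its transcript. Oog3 and Pramel32 carried the same 6 letters at another place in their last 100 bases, shown in capitals.
Oog3, chr4:143884127-143884156, minus strand: taataaatgtgttaactttgTTTTATtttt
Pramel32, chr4:88545565-88545594, minus strand: cccctctgttgaTTTTATacaataaatgtg

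In Pramel32 the motif began 8 bases before AATAAA, and in Oog3 it came after it.

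The promoter windows of Oog1, Oog3 and Pramel32, from 250 bases before to 50 bases after the canonical transcript start, are shown because these genes stood higher in IVO samples. Capitals mark 3 motifs that were searched on both strands. The window of Pramel51, a gene also higher in IVO samples, held none of these 3 motifs and is not shown. TATAAA is the box from which the start of transcription is set. Only this exact string was marked and counted, so similar strings, such as tatataa in the Oog1 and Pramel32 windows, were not. In the Oog1 window tatataa lies before the annotated start, whereas in the Pramel32 window it lies after it, near the end. Places in the Oog1 and Pramel32 windows are therefore offset from each other. TAATTG, seen as its reverse complement where it lies on the other strand, is the core bound by NOBOX, a homeobox regulator of oocyte genes. CAGGTG is an E-box, the kind of site bound by FIGLA and other basic helix-loop-helix factors.
Oog1, chr12:87649208-87649507, plus strand: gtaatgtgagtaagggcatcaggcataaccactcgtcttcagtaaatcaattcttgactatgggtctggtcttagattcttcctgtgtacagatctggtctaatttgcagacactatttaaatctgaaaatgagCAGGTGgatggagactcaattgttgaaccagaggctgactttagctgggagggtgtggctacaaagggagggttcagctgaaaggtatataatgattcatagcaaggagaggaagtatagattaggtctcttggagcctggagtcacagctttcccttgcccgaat
Oog3, chr4:143889184-143889483, minus strand: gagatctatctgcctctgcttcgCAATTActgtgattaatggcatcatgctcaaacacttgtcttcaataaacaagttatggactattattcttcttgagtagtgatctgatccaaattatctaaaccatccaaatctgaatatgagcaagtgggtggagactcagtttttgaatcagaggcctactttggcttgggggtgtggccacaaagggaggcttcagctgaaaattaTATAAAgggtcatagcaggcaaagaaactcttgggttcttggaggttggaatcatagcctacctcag
Pramel32, chr4:88552447-88552746, minus strand: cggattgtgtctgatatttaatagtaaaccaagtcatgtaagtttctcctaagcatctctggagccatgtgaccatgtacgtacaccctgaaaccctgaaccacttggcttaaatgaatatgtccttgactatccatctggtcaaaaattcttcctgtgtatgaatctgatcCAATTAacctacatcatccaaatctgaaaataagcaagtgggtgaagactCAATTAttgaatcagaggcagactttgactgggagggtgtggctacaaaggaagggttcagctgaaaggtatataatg

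Over the 50 protein-coding members, TATAAA was found in 26 windows (52%), against 13.2% of the 21626 windows of all protein-coding genes. TAATTG was found in 12 (24.0%, against 8.1%) and CAGGTG in 14 (28.0%, against 20.6%). CANNTG, the general E-box that includes CAGGTG, was in 44, against 70.6% of all windows. The motifs split by level: TAATTG was in 10 of the 21 members averaging 1 FPKM or more and in 2 of the 29 below it, whereas TATAAA was in 6 of the 21 and in 20 of the 29. Many members are recent copies of each other, so these windows are not independent, and a match is a description of letters and not of a bound factor. Equally, a window without the exact letters TATAAA may still hold a variant of the box.

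The libraries held an inferred 16400000 to 19400000 fragments, and 1 FPKM stood for 26.8 to 31.8 fragments on a member of median length. FPKM divides the fragments of a gene by its length and by the size of its library. It is relative to the RNA sequenced but is not a share that can be compared directly between the groups, since the FPKM of all listed genes summed to 1826738 to 2111776 per IVM sample and 1560813 to 1643682 per IVO sample. Less RNA per oocyte and fewer intact oocytes in a pool cannot be told apart. The inferred mean fragment length was 196 to 216 bases in IVM and 248 to 263 bases in IVO samples, so it moved with the group, and its part in the results below was not tested beyond the removal of the trend with gene length. All 12 oocyte markers exceeded 1 FPKM in each sample, with a summed level of 22599 to 28933 FPKM in IVM samples against 22187 to 24353 FPKM in the IVO samples. Of 15 cumulus and granulosa markers, 3 (Amhr2, Cyp19a1 and Fshr) reached 1 FPKM in each sample, Amh and Areg were at 0, and the list summed to 31.0 to 61.8 FPKM in IVM and 34.5 to 57.6 FPKM in IVO samples. Of 5 oviduct markers, Cdh1 and Epcam reached 1 FPKM throughout (23.0 to 30.7 FPKM summed in IVM and 26.5 to 30.1 in IVO). The 4 blood markers summed to 0 to 0.21 FPKM in IVM and 1.76 to 4.48 FPKM in IVO samples, and their part was not tested.

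A member was counted as detected at 1 FPKM or more in each of the 6 samples. This held for 19 of the 52 members (36.5%), against 10777 of the 53700 Ensembl genes (20.1%). Another 2, Pramel11 and Pramel24, reached 1 FPKM in all IVO samples but not in all IVM samples, and 0 members did the opposite. At the upper end, 9 members (17.3%) had at least 100 FPKM in each sample, a level that 2.5% of the Ensembl genes reached. The Ensembl genes include noncoding genes and pseudogenes, and 50.9% of all Ensembl genes were at 0 in all 6 samples. Nearly all members are protein-coding, so these shares do not compare like genes. Shares over protein-coding genes alone were not computed. At the lower end, 9 members were listed at 0 in all 6 samples and 22 had traces that averaged at most 0.53 FPKM. The floor set by 3 fragments on a member of median length was 0.094 to 0.112 FPKM and accounts only for counting error.

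The members were also counted by genomic cluster (members less than 1 Mb apart). The large chromosome 4 cluster (143120981 to 144135034) held 25 members, of which 13 were detected, and it included Oog2, Oog3 and Oog4. The chromosome 5 cluster (93629688 to 95884032) held 18 members, of which 3 were detected: Pramel34, Pramel47 and Pramel48. Both chromosome 12 members and the single Pramel32, on chromosome 4 outside the cluster (88545557 to 88552648), were detected. Pramel17, Pramel18 and Pramel19, on chromosome 4 (101691150 to 101800380), summed to 0.15 to 0.37 FPKM per sample. In the chromosome 5 cluster every member shared at least 49.8% of its 100-base stretches with other genes, so that fragments could not be assigned to 1 copy with certainty.

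**Figure D1:**
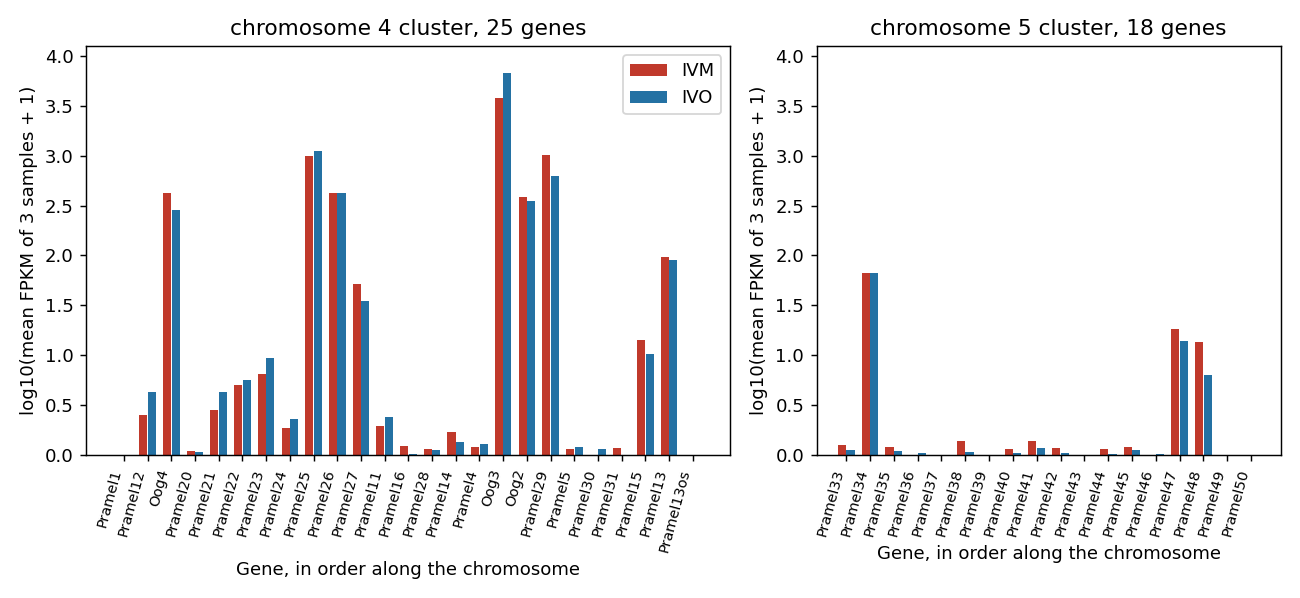
Bars show log10(mean FPKM + 1) of the 3 IVM and the 3 IVO samples for each gene of the large chromosome 4 cluster and of the chromosome 5 cluster, in their order along the chromosome. Detected genes stood beside genes at or near 0 in both clusters, and 13 of 25 and 3 of 18 were detected in every sample.

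Of the members known from other tissues or stages, most were at or near 0. Pramel1 and Pramel3, known from the testis, and Pramel6, known from the inner cell mass and naive pluripotent cells, were at 0 in all 6 samples. Pramel7, the Uhrf1 regulator named above, was at 0.06 FPKM in IVM sample 2 and at 0 in the other samples, which is below the floor. Pramel13, called Pramef12 in older gene tables and known to be needed for spermatogonial stem cells, was by contrast detected, at 94.3, 92.3 and 98.4 FPKM in the IVM samples and 80.3, 101 and 83.5 FPKM in the IVO samples. Its groups overlapped. Pramel13os, the antisense RNA listed at the same place, was at 0 throughout.

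In the comparison of IVO with IVM oocytes, oogenesin-like transcripts of chromosome 12 were about 2 to 3 times higher in IVO oocytes. As deposited, Oog3 and Pramel32 were higher by less than 2-fold, and Pramel29 and Pramel48 were lower. Pramel29 did not reach the fold threshold given next. An adjusted p under 0.05 was lost in some other settings for Oog1, Pramel32, Pramel29 and Pramel48, and was reached only in some other settings for Pramel12 and Pramel21. A differentially expressed gene (DEG) had an absolute log2FC of at least 1 and an adjusted p under 0.05 (limma on log2(FPKM + 1), Benjamini-Hochberg over 18818 genes, those averaging 1 FPKM or more). Of the 21 members tested, 2 were DEGs higher in IVO (Oog1 and Pramel51), where 0.606% of all tested genes were, and 1 was a DEG lower in IVO (Pramel48), where 17.9% were. At an adjusted p under 0.05 without the fold threshold, 4 members were higher (1.87% of all tested genes) and 2 lower (21.5%). IVM and IVO values were fully apart for 7 members that were higher in IVO (9.62% of all tested genes) and 3 that were lower (32.6%). The median log2FC was 0.15 over the members and -0.30 over all tested genes, and 12 of the 21 members had a positive log2FC. The tested genes include assembled loci without an Ensembl identifier, whereas every member is an Ensembl gene. Over the tested Ensembl genes the median was -0.18. With Ensembl genes only, 1972 of 13153 were DEGs lower in IVO and 84 were higher, and the members had 1 lower and 2 higher as before.

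**Figure D2:**
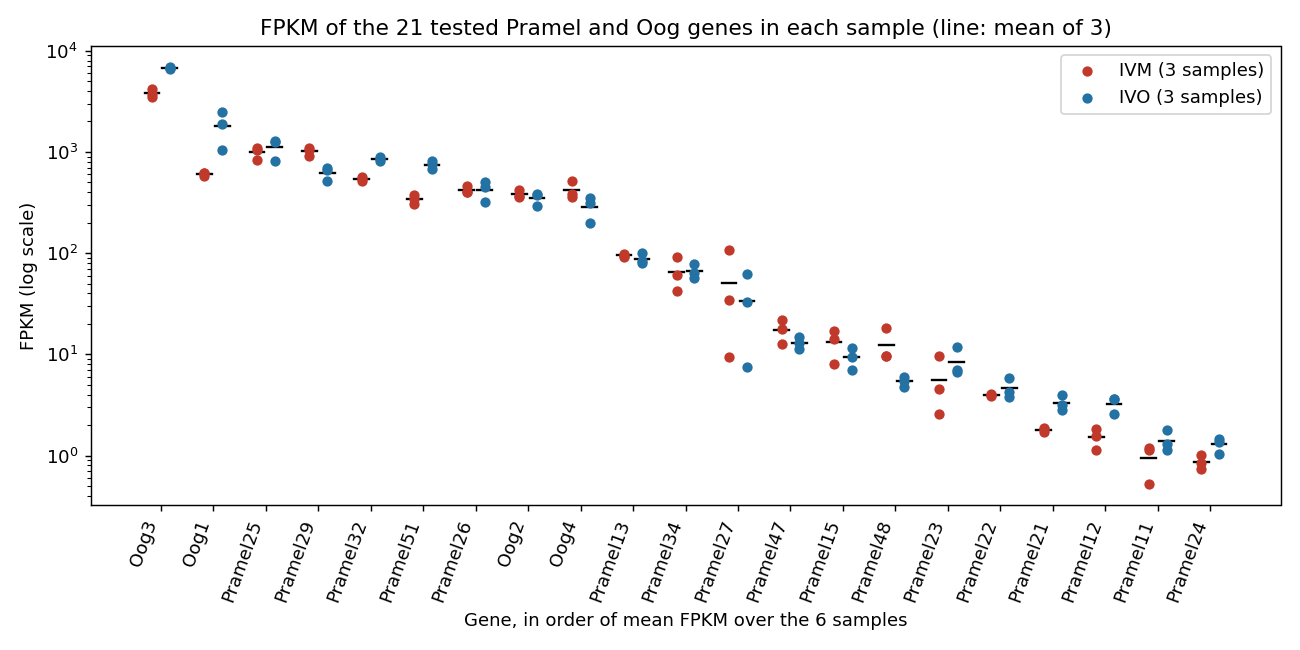
Points show the FPKM of each IVM and IVO sample on a log axis for the 21 tested members, ordered by mean FPKM, and the short lines are the means of 3 samples. Oog3 stands above all others, the IVO points of Oog1, Pramel51 and Pramel32 lie above the IVM points, and Pramel27 is spread over a range of more than 8-fold inside each group.

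The median shift of all tested genes depended on how the libraries were scaled. After median-ratio scaling it was -0.04 over all tested genes, 0.08 over the Ensembl genes among them and 0.42 over the members. On that scale 3 members were DEGs higher in IVO (Oog1, Oog3 and Pramel51), against 2.05% of tested genes, and 0 were lower, against 11.3%. Oog2, Pramel13 and Pramel26 had a negative log2FC as deposited and a positive one after this scaling, and none of the 3 passed the threshold on either scale.

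**Figure D3:**
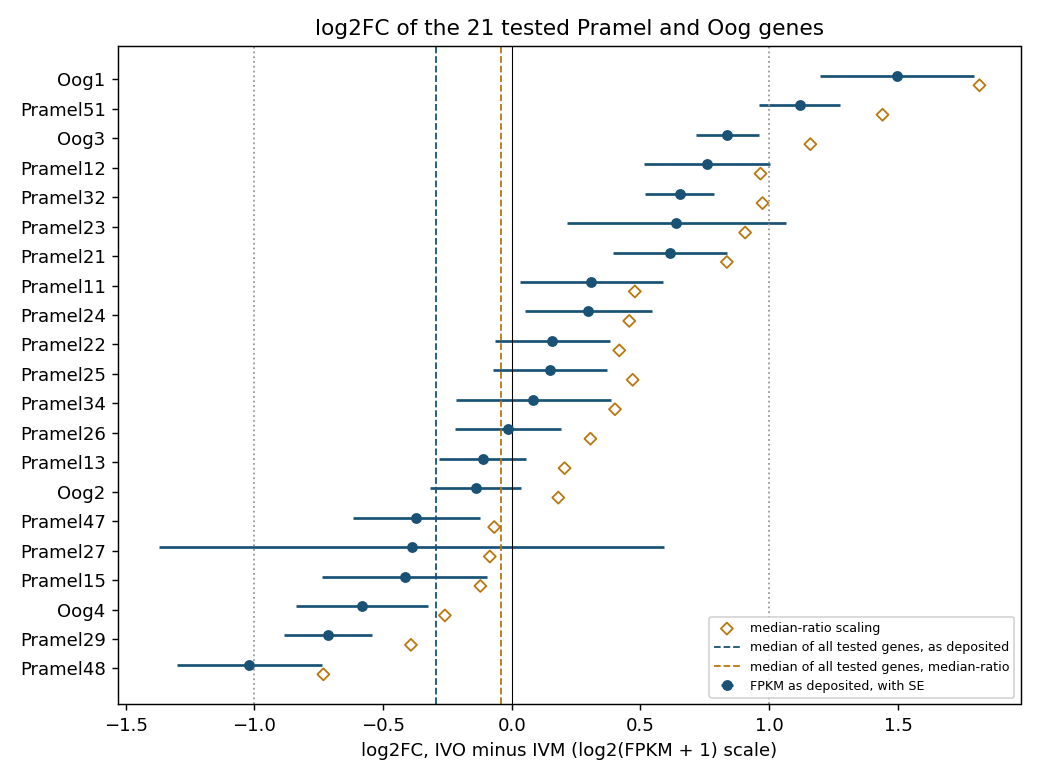
Filled points show the log2FC of IVO minus IVM with its SE for the 21 tested members as deposited, open diamonds the log2FC with median-ratio scaling, dashed lines the medians of all tested genes on each scale and dotted lines a log2FC of -1 and 1. As deposited, Oog1 and Pramel51 lie beyond 1 and Pramel48 beyond -1, and every diamond lies to the right of its point.

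Among the oogenesins, Oog3 (chromosome 4, 143884127 to 143889233) was the most abundant member in every sample. It measured 4229, 3464 and 3749 FPKM in the IVM samples and 6665, 6788 and 6932 FPKM in the IVO samples. All IVO values exceeded all IVM values, and those of the IVO samples lay close together. The log2FC was 0.84 ± 0.12 (SE) with a limma adjusted p of 0.0049, just outside the fold threshold, and 1.16 with median-ratio scaling. Oog3 made up 42.0% to 44.5% of the summed FPKM of the members in IVM and 46.9% to 58.2% in IVO samples, and among Ensembl genes it ranked 49th to 67th in IVM and 15th to 21st in IVO samples.

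Oog1, the oogenesin first described, measured 579, 618 and 614 FPKM in the IVM samples and 2492, 1874 and 1057 FPKM in the IVO samples. The IVM values agreed closely, the IVO values differed by 2.36-fold among themselves, and the groups did not overlap. Its log2FC was 1.50 ± 0.30 (SE) with a limma adjusted p of 0.013. The call was lost without IVM sample 1 (adjusted p = 0.056) or IVM sample 2 (adjusted p = 0.051), although the log2FC then stayed at 1.47 and 1.51. Oog1 shared 91.7% of its 100-base stretches with Gm2042, and its own level is uncertain for that reason.

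Pramel51, the other member of the chromosome 12 cluster, measured 379, 307 and 345 FPKM in the IVM samples and 757, 808 and 676 FPKM in the IVO samples. The groups were well apart, with a log2FC of 1.12 ± 0.16 (SE) and a limma adjusted p of 0.0042, and Pramel51 stayed a DEG whichever of the 6 samples was left out. It shared 42.0% of its stretches with other genes. Gm2042 measured 452, 424 and 500 FPKM in IVM and 1203, 1123 and 884 FPKM in IVO samples, and was itself a DEG with a log2FC of 1.21.

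Because fragments of these 3 near-identical transcripts may be exchanged between them, they were also summed, a choice made after their values were seen. The sum of Oog1, Gm2042 and Pramel51 was 1406 ± 54.9 FPKM (SD, n = 3) in IVM and 3625 ± 931 FPKM (SD, n = 3) in IVO samples, a ratio of the means of 2.58. The lowest IVO sum, 2617 FPKM, was above the highest IVM sum, 1459 FPKM. Each of the 3 was already apart and higher in IVO, so the sum had to be apart as well and is given as a description.

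Pramel25 and Pramel29, the chromosome 4 genes closest to Oog1, had no call in its direction. Pramel25 measured 1103, 840 and 1049 FPKM in IVM and 1292, 1259 and 813 FPKM in IVO samples, with overlapping groups and a log2FC of 0.15 ± 0.22 (SE). Pramel29 measured 1093, 904 and 1052 FPKM in IVM and 691, 660 and 517 FPKM in IVO samples. Pramel29 was thus lower in each IVO sample than in any IVM sample, with a log2FC of -0.71 ± 0.17 (SE) and a limma adjusted p of 0.024, which is inside the p threshold but not the fold threshold. With median-ratio scaling its log2FC was -0.39 (adjusted p = 0.13), and the adjusted p was 0.060 to 0.078 when IVM sample 1, IVM sample 3, IVO sample 2 or IVO sample 3 was left out. It was 0.053 with no filter, 0.055 with the length trend removed and 0.051 with eBayes without trend. Of their 100-base stretches, 16.1% and 15.0% were shared with other genes.

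Pramel32, which shared 0% of its stretches with another gene, measured 514, 546 and 563 FPKM in IVM and 810, 854 and 888 FPKM in IVO samples. Both groups were tight and apart, with a log2FC of 0.65 ± 0.13 (SE) and a limma adjusted p of 0.015. The adjusted p was 0.058 without IVO sample 2.

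Oog4, also without shared stretches, went the other way in its values. It measured 511, 360 and 388 FPKM in IVM and 347, 310 and 198 FPKM in IVO samples. The groups were just apart, but the log2FC of -0.58 ± 0.26 (SE) had a limma adjusted p of 0.15. Oog2 measured 369, 358 and 425 FPKM in IVM and 375, 386 and 289 FPKM in IVO samples, and Pramel26, which shares stretches with Oog2, measured 400, 405 and 462 FPKM in IVM and 502, 452 and 318 FPKM in IVO samples. The groups of both overlapped, with log2FC of -0.14 and -0.02. In Oog1, Oog2, Oog4, Pramel51, Pramel25, Pramel26 and Pramel29 alike, IVO sample 3 was the lowest of the IVO samples, whereas in Oog3 and Pramel32 it was the highest.

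**Figure D4:**
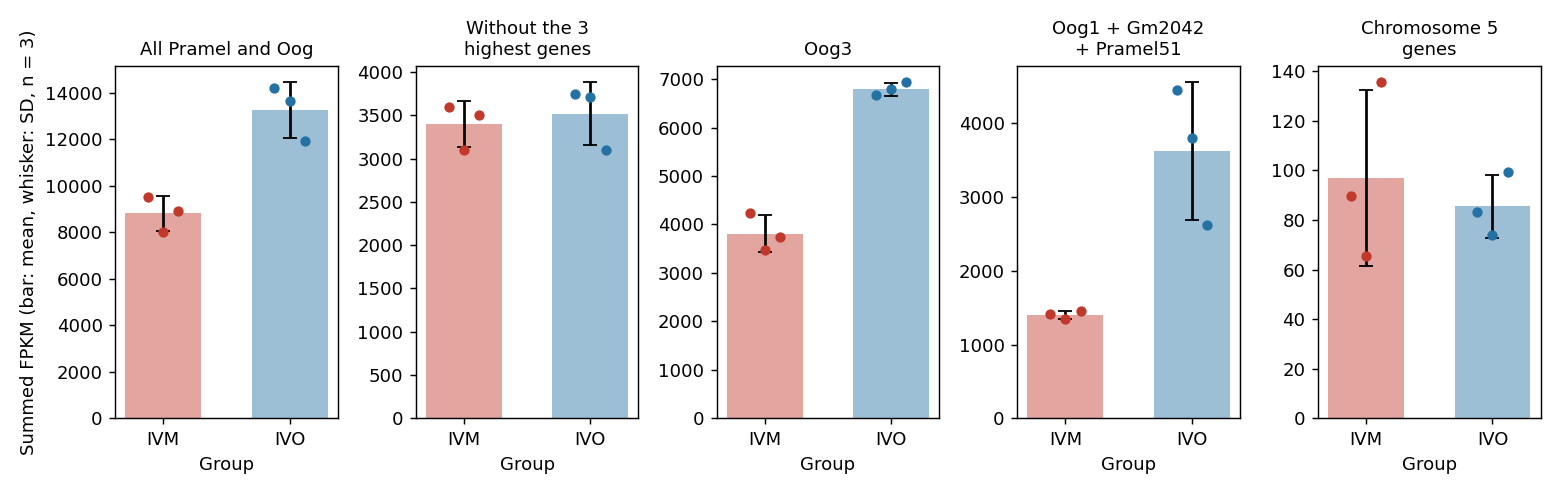
Bars show the mean summed FPKM of 3 IVM and 3 IVO samples, whiskers the SD and points the samples, for all members, for all but the 3 highest (Oog3, Oog1 and Pramel25), for Oog3, for the 3 near-identical chromosome 12 transcripts and for the chromosome 5 members. The IVO points lie above the IVM points for all members, Oog3 and the chromosome 12 transcripts, and overlap with them in the other panels.

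Summed over all 52 members, the level was 8814 ± 751 FPKM (SD, n = 3) in IVM and 13245 ± 1193 FPKM (SD, n = 3) in IVO samples, a ratio of 1.50. Without Oog3 the ratio was 1.29 as deposited, with overlapping groups, and without the 3 highest members it was 1.04. This loss held on the deposited scale. Without Oog3 the ratio was 1.61 with median-ratio scaling, 1.63 as a share of all listed genes and 1.74 with quantile normalization, with the groups apart in each. Without the 3 highest members it was 1.29, 1.31 and 1.43 on these scales, and the groups overlapped on the second of them. The 5 highest members took 78.8% to 79.5% of the sum in IVM samples, against 84.6% to 87.1% in IVO samples. The chromosome 5 members summed to 96.9 ± 35.6 FPKM (SD, n = 3) in IVM and 85.4 ± 12.8 FPKM (SD, n = 3) in IVO samples, with overlapping groups.

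Pramel48, on chromosome 5, was the member called lower. It measured 9.71, 9.57 and 18.2 FPKM in IVM and 5.98, 4.80 and 5.44 FPKM in IVO samples, with 1 high IVM value and groups that did not overlap. Its log2FC of -1.02 ± 0.28 (SE) lay just inside the fold threshold, with a limma adjusted p of 0.039. The call was lost without any 1 of the 6 samples, with adjusted p from 0.059 to 0.12, and with median-ratio scaling (log2FC -0.73, adjusted p = 0.087). It shared 68.2% of its stretches with other genes. On the other side of the threshold, Pramel12, a gene of the large chromosome 4 cluster, measured 1.82, 1.58 and 1.14 FPKM in IVM and 3.61, 3.59 and 2.56 FPKM in IVO samples. Its groups were apart and its log2FC was 0.76 ± 0.24 (SE), but its limma adjusted p was 0.063. The adjusted p was 0.032 with median-ratio scaling (log2FC 0.97) and 0.018 with quantile normalization (log2FC 1.24). Pramel12 shared 0% of its stretches.

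The 9 tested members not yet named with a value had log2FC from -0.42 (Pramel15) to 0.64 (Pramel23), and none passed an adjusted p under 0.05 as deposited. Pramel21 (log2FC 0.61) and Pramel24 (log2FC 0.30) were low genes whose groups were apart. The limma adjusted p of Pramel21 was 0.037 with median-ratio scaling (log2FC 0.84) and 0.042 with the length trend removed (log2FC 0.81). Pramel27 varied most inside the groups, with 108, 34.2 and 9.52 FPKM in IVM and 61.6, 33.2 and 7.43 FPKM in IVO samples. Its highest and lowest samples differed by 11.4-fold in IVM and by 8.29-fold in IVO, whereas the median over the 14268 genes with at least 1 FPKM in each sample was 1.56-fold and 1.43-fold. Pramel27 was the 1 gene among these 14268 to reach both of those spreads, and 22 of them reached 5-fold in both groups. A pseudogene of the same cluster, Gm13058, picked after its values were seen, varied likewise, at 13.7, 6.80 and 1.33 FPKM in IVM and 6.81, 3.36 and 1.59 FPKM in IVO samples.

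The 3′ ends were read in the 40 members with at least 100 bases annotated after the coding part. TTTTAT or TTTTAAT lay in the last 100 bases of 13 of them (32.5%), against 16.9% of 19717 protein-coding genes. This motif was looked up with the log2FC already known, so the values that follow are a description with no test. Among the tested members, the 9 with the motif had a median log2FC of 0.61, with 8 above 0, and the 10 without it had a median of -0.24, with 4 above 0. Among the other tested protein-coding genes the medians were -0.02 for the 1887 with the motif and -0.19 for the 7906 without it. Oog1, Pramel51, Oog3 and Pramel32 had it and Pramel29, Oog4 and Pramel48 lacked it, but Pramel25 and Pramel26 also had it, at log2FC of 0.15 and -0.02, and Pramel12 lacked it. The 9 with the motif are not independent, since Oog1, Pramel51 and Pramel25 among them are close copies. In Oog3 and Pramel21 the motif came only after the last AATAAA, and Pramel11 had no AATAAA in these bases.

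The genes related to the members were read from 2 lists. Of 20 other PRAME-family genes in the table, chosen by their description, 10 were at 0 in all samples and 4 could be tested. Of these 4, 1 was a DEG lower in IVO (17.9% of all tested genes) and 1 a DEG higher (0.606%), too few genes to compare with those shares. AC164084.3 measured 42.3, 35.9 and 60.0 FPKM in IVM and 5.30, 5.01 and 21.7 FPKM in IVO samples (log2FC -2.28, limma adjusted p = 0.021). AC123873.3 measured 2.00, 0.28 and 0 FPKM in IVM and 20.9, 19.6 and 2.23 FPKM in IVO samples (log2FC 2.85, limma adjusted p = 0.039). Both were still called without IVO sample 3 (adjusted p = 0.0035 and 0.0067) and lost their call without any other single sample. Pramel41, a chromosome 5 member, shared 87.4% of its 100-base stretches with AC164084.3. The shares of AC164084.3 and AC123873.3 themselves were not computed, so their fragments may be exchanged with other copies and their own levels are uncertain. The second list held 21 genes, namely subunits, receptors and modifiers of the cullin-2 ligase, and also Uhrf1, the protein that Pramel7 leads to it. Of these, 19 were tested, 7 were DEGs lower in IVO (36.8%, against the 17.9% above) and 0 were higher. The 2 elongins that link cullin-2 to its receptors were among them. Eloc fell from 2813, 3276 and 2262 FPKM in IVM to 755, 810 and 865 FPKM in IVO samples (log2FC -1.77, limma adjusted p = 0.0015), and Elob from 103, 113 and 119 FPKM to 30.9, 19.4 and 22.3 FPKM (log2FC -2.18, limma adjusted p = 0.0016). Nedd8, whose conjugation activates cullins, had a log2FC of -1.72 and Ube2m, its conjugating enzyme, of -1.78, and the receptors Klhdc3, Zyg11b and Fem1c of -2.79, -1.36 and -1.54. Cul2 itself (log2FC 0.45), Rbx1, its RING partner (0.03), and Uhrf1 (-0.12) did not pass the threshold. The number of genes on this list called lower was 5 with median-ratio scaling, with quantile normalization and with the length trend removed. Of all 18818 tested genes, 2130 (11.3%), 1580 and 1511 were lower in these settings. Eloc and Elob are short, at 620 and 537 bases, and the part of fragment length in their values was not tested.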

How the data were processed

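The deposited table held FPKM per gene and sample. The authors amplified cDNA by SMART-Seq v4, which primes on poly(A) tails, built Nextera XT libraries, used SeqPrep and Sickle as read filters, and aligned to GRCm39 before abundance was estimated. The submitters' processing notes list HISAT2 2.1.0, RSEM 1.3.3 and DESeq2 1.24.0. The annotation release is not given in the sources used here. The deposited FPKM means per group were not used.

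IVO was compared with IVM by limma 3.58.1 in R 4.3.3 (lmFit, eBayes with trend, two-sided) on log2(FPKM + 1), group as the only term, over the 18818 genes averaging 1 FPKM or more. The Benjamini-Hochberg adjustment ran over every tested gene, and the log2FC understates changes of low genes. The fit was tested on simulated data. The files hold FPKM, so no count test was run. Depth and fragment length were inferred from low FPKM of genes with 1 transcript of 500 to 1500 bases, where 80.0% to 83.7% of values came within 0.2 of a whole fragment.

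All 52 members matched GENCODE vM39 by identifier. Shared stretches were the 100-base windows of a canonical transcript that also occur in a transcript of another gene. Named with the value in every sample were the members that are DEGs, the 10 with the highest mean FPKM, and Oog1 to Oog4, Pramel1, Pramel3, Pramel6, Pramel7, Pramel12 and Pramef12 (Pramel13). Members, gene lists and marker lists were chosen with earlier results of these data known, and motifs, Gm2042 and Gm13058 after seeing the values of the members. The labels give replicate numbers only, and the study's methods describe biological replicates, each a pool of oocytes. Whether pools shared mice is not stated. Alternatives were other pseudocounts, filters, scalings, eBayes settings, a replicate block, removal of the length trend, Ensembl genes only, and leaving out each sample.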

Additional observations from a re-analysis of the deposited data

How the results depend on the processing

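With 12 named members and 16 alternatives, 158 of 191 values of the log2FC kept their direction and their side of the threshold; the cause of the changes was not tested. The members called lower (1) numbered 0 with no filter, under quantile normalization, median-ratio scaling or the replicate block, after removal of the length trend (also with the block) and without any 1 sample, and 2 with no threshold on the fold. The members called higher (2) numbered 5 with quantile normalization, 4 with no threshold on the fold, and 1 to 2 without 1 sample. Of all tested genes, 3366 were lower and 114 higher; the values were 2130 and 385 after median-ratio scaling, 1580 and 1097 under quantile normalization, 1511 and 557 with the length trend removed, and 741 and 188 when the replicate block was added to that removal; 1972 were lower with Ensembl genes only, and 351 higher with no threshold on the fold. One cullin-2 gene was higher (1) with quantile normalization. The other PRAME-family genes called lower and higher (1 each) both numbered 0 with no filter and 0 to 1 without 1 sample. Reversed were Pramel13 (0.21 with median-ratio scaling, 0.41 with quantile normalization, 0.084 with the length trend removed, with or without the block), Oog2 (0.18, 0.36 and 0.052) and Pramel26 (0.31, 0.49 and 0.18, and -0.15 to 0.18 without 1 sample). Detection rose from 19 to 43 members at any FPKM above 0. The ratio of the summed FPKM (1.50) was 1.88 with median-ratio scaling, 1.90 as a share of all listed genes, 1.82 with quantile normalization, 1.29 without Oog3, 1.04 without the 3 highest members (added after seeing the data; on those 3 scales 1.61, 1.63 and 1.74 without Oog3 and 1.29, 1.31 and 1.43 without the 3 highest) and 1.44 to 1.58 without 1 sample. Same-numbered samples did not deviate together (correlations -0.06, -0.02 and -0.11), so the numbers were not taken as pairs; with the replicate block 2 members were higher and 0 lower, and the adjusted p of Pramel32 and Pramel29 was 0.064 and 0.070. Below about 0.1 FPKM the depth does not tell a silent member from a low one.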
